A study of Homo sapiens with 8 samples.

Results

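The genes described here are 33 genes of the unfolded protein response and of the amino acid stress response, taken by symbol from a deposited table of 59641 genes. They comprise 3 stress sensors, 12 chaperones and folding factors of the endoplasmic reticulum (ER), 3 genes of ER-associated degradation, the transcription factor genes XBP1 and ATF4, and 13 genes that the transcription factor ATF4 is known to induce, DDIT3 among them. Each symbol matched 1 gene. RNA was sequenced from HCT116 cells, a line established from a human colorectal carcinoma. Of the 8 samples, 4 had received hFGF19, the human form of the gut hormone FGF19, at 100 ng/ml for 72 h, and 4 were controls without it. All 8 samples were of the same line, and no other agent or genetic change is named in the labels. The labels do not say how long the controls were cultured, nor whether samples came from separate cultures, so the spread behind each p-value is that between samples as labelled and could be technical.

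Unfolded protein in the ER is sensed by 3 membrane proteins, encoded by ERN1, EIF2AK3 and ATF6. ERN1 acts through splicing of XBP1 mRNA, ATF6 is itself cut to release a transcription factor, and both routes raise chaperone and degradation genes. EIF2AK3 slows translation and thereby favours the making of ATF4 protein, which raises genes for amino acid synthesis and uptake. Lack of amino acids reaches ATF4 by a separate kinase, so the chaperones and the ATF4 targets can move apart. In tumour cells with a high secretory or biosynthetic load, both programmes are often active without an added stress. Gene-level values do not show XBP1 splicing, ATF6 cleavage or ATF4 translation.

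Both branches act through short elements ahead of their target genes, and 5 promoter stretches are printed because they hold such elements. Promoters from RefSeq (assembly GRCh38.p14, 250 bases before to 50 bases after a transcription start) were on hand for 31 of the 33 genes, as 44 sequences. They were searched on both strands for the ER stress response element ERSE (CCAAT and CCACG with 9 bases between them), for ERSE-II (ATTGG and CCACG with 1 base between them), for the unfolded protein response element UPRE (TGACGTGG) and for the C/EBP-ATF composite element CARE (TGATGNAA). ERSE was found in 0.0769% of all 35116 promoters in the table, ERSE-II in 0.0541%, UPRE in 0.729% and CARE in 3.62%. These are shares of promoters, whereas the counts below are of genes. Some genes have more than 1 promoter (17 for the 12 ER chaperones), which raises the count of genes with a match. Each stretch reads 5′ to 3′ on the gene's own strand, with matches on either strand in capitals. HSPA5 (chr9:125241361-125241439, minus strand) and HSP90B1 (chr12:103930186-103930369, plus strand) hold ERSE, HYOU1 (chr11:119057244-119057423, minus strand) holds ERSE-II at 2 places and a UPRE that overlaps the upstream one, HERPUD1 (chr16:56931936-56932065, plus strand) holds CARE and then ERSE-II, and CHAC1 (chr15:40953232-40953299, plus strand) holds CARE.
HSPA5: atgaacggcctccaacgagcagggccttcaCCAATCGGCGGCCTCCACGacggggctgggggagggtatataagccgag
HSP90B1: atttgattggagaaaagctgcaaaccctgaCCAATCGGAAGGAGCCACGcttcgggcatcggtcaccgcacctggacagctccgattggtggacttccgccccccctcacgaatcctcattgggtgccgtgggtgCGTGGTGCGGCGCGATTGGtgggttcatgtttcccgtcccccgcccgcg
HYOU1: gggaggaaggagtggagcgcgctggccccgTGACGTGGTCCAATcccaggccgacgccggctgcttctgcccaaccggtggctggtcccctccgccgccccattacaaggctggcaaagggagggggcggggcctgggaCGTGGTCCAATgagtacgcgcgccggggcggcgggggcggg
HERPUD1: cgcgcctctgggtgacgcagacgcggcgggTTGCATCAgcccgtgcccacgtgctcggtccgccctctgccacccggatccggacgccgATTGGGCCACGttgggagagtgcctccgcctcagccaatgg
CHAC1: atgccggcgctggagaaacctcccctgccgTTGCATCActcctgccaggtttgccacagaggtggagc

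Of the 12 ER chaperone genes, 8 held ERSE or ERSE-II in at least 1 promoter (CALR, CANX, CRELD2, HSP90B1, HSPA5, HYOU1, PDIA6 and SDF2L1) and 0 held CARE. Of the 11 ATF4 targets with a promoter on hand, 0 held ERSE or ERSE-II and 3 held CARE (ASNS, CHAC1 and SLC3A2). HERPUD1 held an element of each kind, and XBP1, outside the chaperone list, held ERSE. In HSPA5 the ERSE began 66 bases before the start, and in HSP90B1 the matches began 194 and 89 bases before it. The CARE of ASNS began 68 bases before the start and that of CHAC1 209 bases before it, whereas that of SLC3A2 lay after the start. A match is a description of letters in this window and shows no binding. The elements searched are those already held to act in such genes, so the contrast between the lists is not an independent result.

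**Figure D1:**
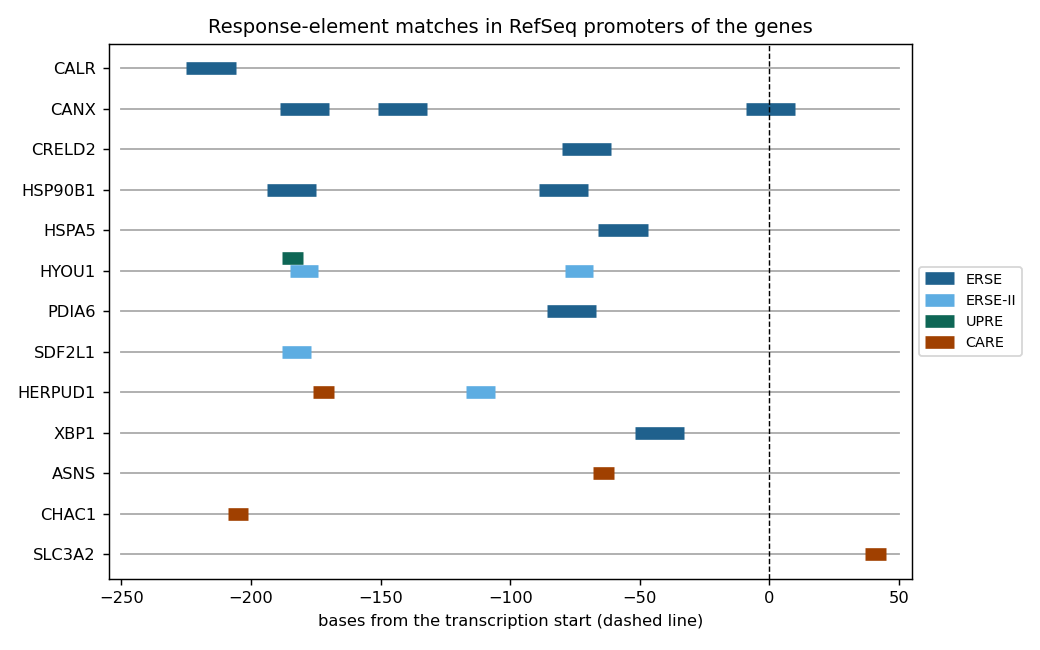
Positions of response-element matches in the RefSeq promoters of the 13 genes with a match, in bases from the transcription start (dashed line), with 1 row per gene, promoters of a gene overlaid and 1 colour per element. ERSE and ERSE-II fill the rows of the 8 chaperones at the top, and CARE appears in the rows of HERPUD1, ASNS, CHAC1 and SLC3A2.

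The 33 genes spanned nearly the whole range of expression in HCT116. Levels are given as FPKM, the fragments of a gene scaled to its length and to the total of its library. CANX, a lectin chaperone that holds glycoproteins during folding, averaged 2402 FPKM over the 8 libraries. It was followed by SLC3A2, the heavy chain shared by several amino acid transporters, at 962 FPKM and by HSP90B1, the ER member of the HSP90 family, at 816 FPKM. SLC7A5, a transporter of large neutral amino acids that pairs with SLC3A2, averaged 454 FPKM, and CALR, the soluble relative of CANX, averaged 415 FPKM. The highest of the stress genes thus came from both lists.

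At the low end stood CHAC1, an enzyme that degrades glutathione, at 6.50 FPKM, NUPR1, a small stress-induced chromatin protein, at 3.15 FPKM, and ASNS, asparagine synthetase, at 1.68 FPKM. PHGDH, the enzyme that starts serine synthesis, was at or near 0. Its libraries held 1, 0, 0 and 3 reads in hFGF19 samples 1 to 4, against 2, 0, 0 and 0 reads in control samples 1 to 4. A count of 0 allows up to 3 reads, which is 0.108 to 0.131 FPKM in these libraries, and covers counting error only. PSAT1, which acts next in the same pathway, averaged 74.8 FPKM. PHGDH fell below the filter of a mean of 1 FPKM, and the other 32 genes were tested.

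The order of levels rests on the gene lengths behind the deposited FPKM. They equalled the mean length of a gene's transcripts in GENCODE 29, which is 1137 bases for CANX against 6235 bases of exons in all. Over all exonic bases CANX would stand at 438 FPKM and still highest of the 33, while SLC7A5 would be the next at 296 FPKM and HSPA5, whose length is the same either way, would come after it at 259 FPKM. CHAC1, NUPR1, ASNS and PHGDH were among the 5 lowest under either length. For ASNS, 44.6% of the exonic bases are shared with AC079781.5, a gene on the same strand, and its level is uncertain because the assignment of reads in overlaps is not given in the sources used here. The exons of DDIT3 (31.6% of bases) and MTHFD2 (33.2%) overlap genes on the other strand, and the strand setting is likewise not given. For DDIT3, at 23.2 FPKM, the gene with the largest overlap was MARS, at 245 FPKM. For MTHFD2 it was SLC4A5, at 0.194 FPKM. A further 8.03% of the exonic bases of DDIT3 are shared on the same strand.

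**Figure D2:**
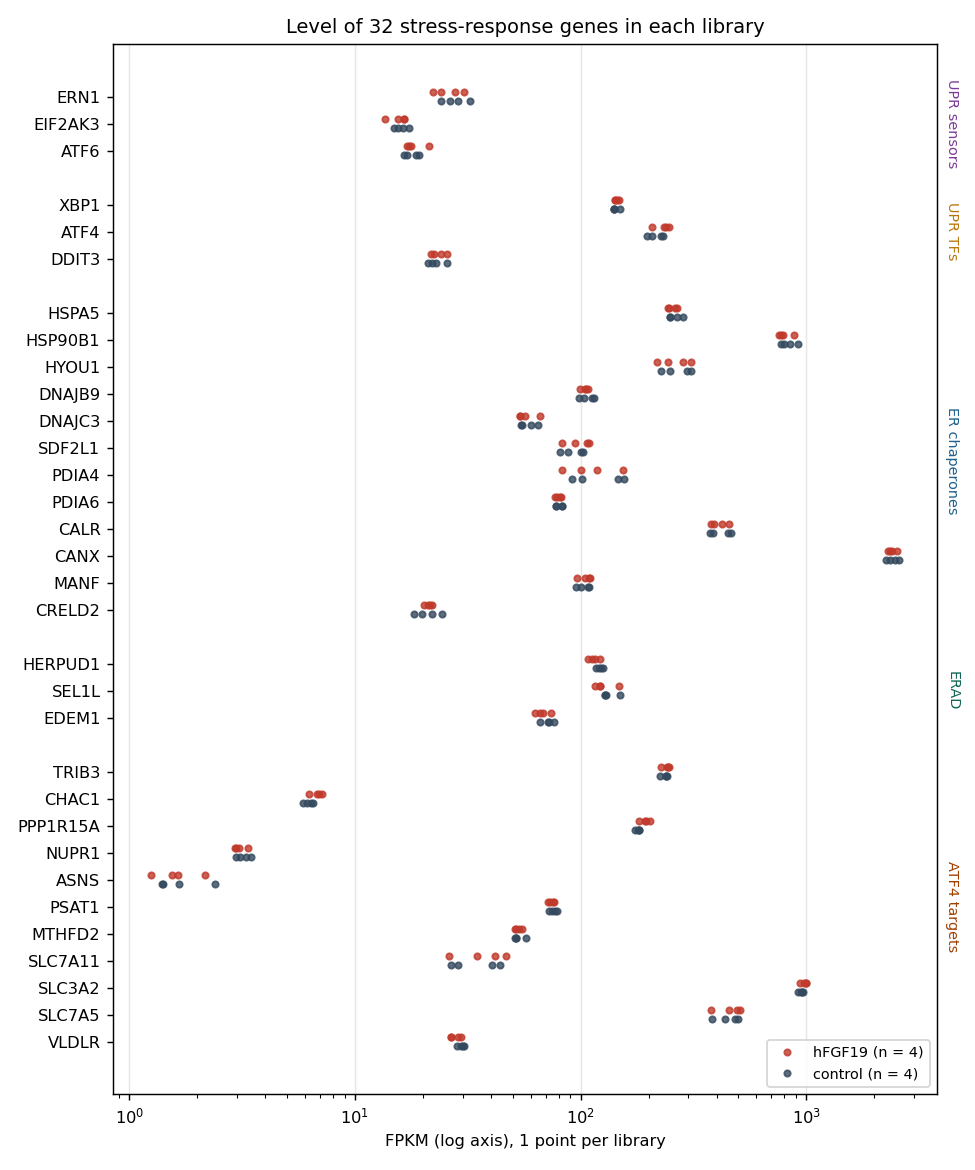
FPKM of the 32 genes tested (log axis), grouped by role, with 1 point per library and the 4 hFGF19 libraries drawn above the 4 control libraries of each gene. The points of the groups overlap for each gene, from ASNS at 1.24 FPKM in its lowest library to CANX at 2585 FPKM in its highest.

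No difference was detectable between HCT116 exposed to hFGF19 and control HCT116 in any of the 32 genes tested. In bulk RNA, fewer cells of a kind and less RNA per cell cannot be told apart. With limma, 0 of 32 passed an adjusted p of 0.05 (Benjamini-Hochberg over all 14100 genes tested, of which 15, or 0.106%, were called, 0.0993% higher and 0.00709% lower with hFGF19). At an unadjusted p of 0.05 the count was likewise 0 of 32, against 4.23% of all genes, and 0 of 32 had groups that did not overlap, against 3.12% of all genes. The log2 difference, hFGF19 minus control on log2(FPKM + 1), lay between -0.12 (PDIA4) and 0.10 (CHAC1). The mean was higher with hFGF19 for 13 genes and lower for 19, and 43.7% of all genes were higher. The median difference was -0.020 for the 32 genes and -0.013 for all genes tested.

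The intervals bound the size of the difference between the samples as labelled, and rest on the same spread, which could be technical. The folds here are of FPKM + 1, and for genes of a few FPKM, such as ASNS and NUPR1, they are narrower than those of the FPKM itself. The 95% confidence interval of the difference lay within 1.1-fold in either direction for 4 of 32 genes, within 1.2-fold for 25, within 1.3-fold for 30 and within 1.5-fold for 32 of 32. With a pseudocount of 0.1 the counts were 4, 23, 29 and 32, and the interval of ASNS ran from 0.677-fold to 1.38-fold and that of NUPR1 from 0.81-fold to 1.14-fold. With the pseudocount of 1 the interval was widest for PDIA4, from -0.57 to 0.34 log2, and for SLC7A11, from -0.34 to 0.53 log2. With 0.1 that of ASNS was the widest. These counts are of single intervals, with no allowance for their number. With the replicate number as a block, limma called 0 of 32 and the smallest adjusted p was 0.732.

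**Figure D3:**
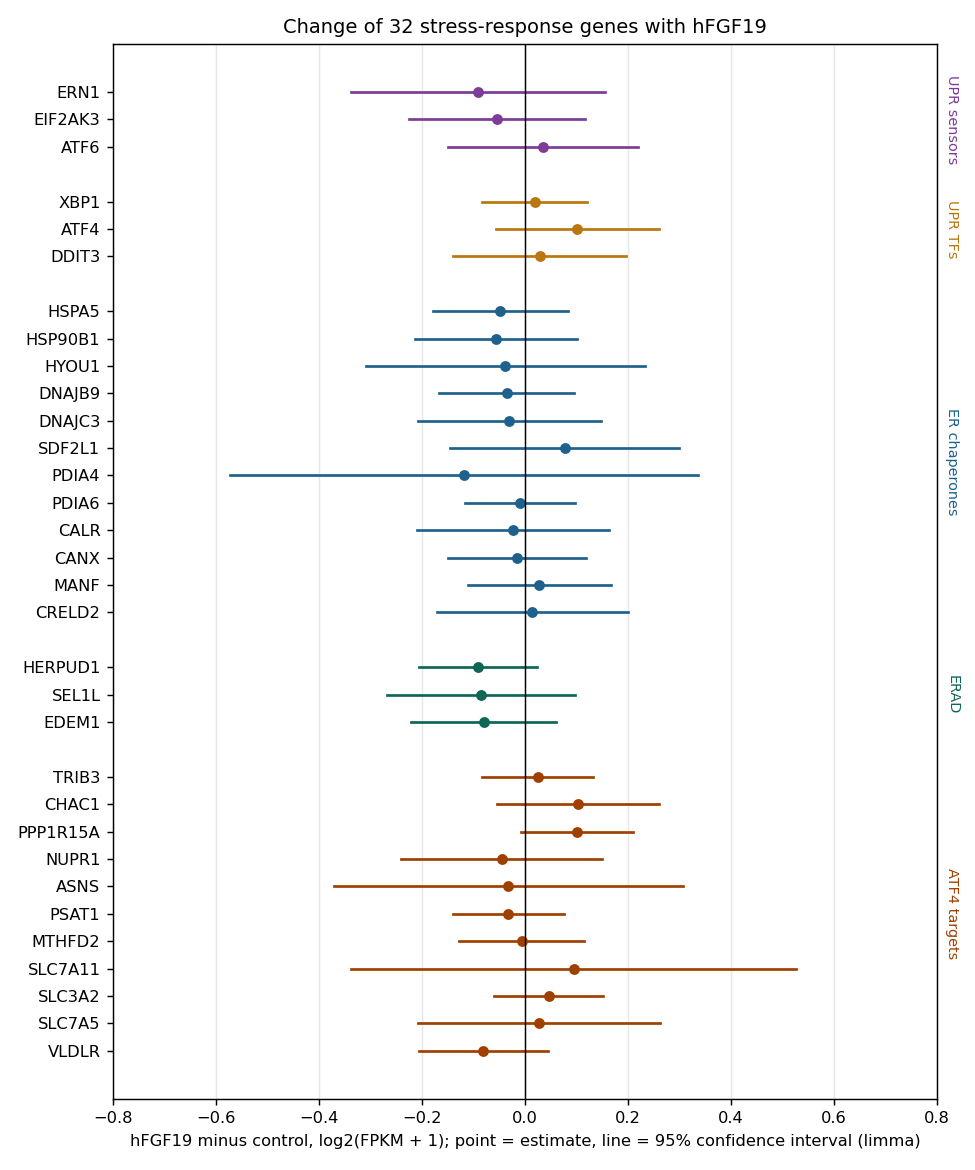
Difference between hFGF19 and control samples (log2 of FPKM + 1, n = 4 each) for the 32 genes tested, by role, with the limma estimate as a point and its 95% confidence interval as a line. Each line crosses 0, and those of PDIA4 and SLC7A11 are the widest.

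The sensors were expressed at moderate levels. ERN1, the kinase and ribonuclease that starts XBP1 splicing, stood at 30.6, 24.1, 22.1 and 27.8 FPKM in hFGF19 samples 1 to 4 and at 32.4, 24.0, 26.4 and 28.7 FPKM in control samples 1 to 4. The groups overlapped, and in each group samples 1 and 4 were the highest. EIF2AK3, the kinase that phosphorylates the translation factor eIF2α, averaged 15.5 ± 1.37 FPKM with hFGF19 and 16.1 ± 1.07 FPKM in controls (SD, n = 4 each). ATF6, the membrane-bound transcription factor, averaged 18.4 ± 2.03 FPKM with hFGF19 and 17.9 ± 1.32 FPKM in controls.

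Of the transcription factors, XBP1 varied least of all 33 genes over the 8 libraries, with a coefficient of variation of 2.62%. It averaged 144 ± 2.98 FPKM with hFGF19 and 143 ± 4.66 FPKM in controls. ATF4 stood at 208, 234, 246 and 238 FPKM in hFGF19 samples 1 to 4 and at 196, 232, 227 and 207 FPKM in control samples 1 to 4. Its mean was higher with hFGF19 by 0.10 ± 0.071 log2 (SE, limma adjusted p = 0.9998) and the hFGF19 sample was the higher one in 4 of 4 same-numbered pairs, but the groups overlapped. Its 95% interval ran from 0.962-fold to 1.197-fold. The replicate numbers are not shown to mark true pairs. Counts of same-numbered pairs, here and below, are therefore a description, and their share over all genes was not computed. DDIT3, a factor of the ATF4 branch linked to cell death, averaged 23.4 ± 1.78 FPKM with hFGF19 and 22.9 ± 1.96 FPKM in controls.

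The ER chaperones did not pass the test in either direction, with 3 of 12 means higher and 9 lower with hFGF19 and a median difference of -0.027 log2. HSPA5, the HSP70 of the ER lumen and the gene most used to read this response, stood at 267, 246, 243 and 261 FPKM in hFGF19 samples 1 to 4 and at 269, 250, 249 and 285 FPKM in control samples 1 to 4. The hFGF19 value was below that of the same-numbered control in each of the 4 pairs, and the groups overlapped. The difference was -0.048 ± 0.059 log2 (SE), and its 95% interval ran from 0.884-fold to 1.06-fold. HSP90B1 averaged 801 ± 57.7 FPKM with hFGF19 and 832 ± 64.3 FPKM in controls. HYOU1, which drives nucleotide exchange on HSPA5, averaged 263 ± 40.1 FPKM with hFGF19 and 270 ± 38.6 FPKM in controls.

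The co-chaperones DNAJB9 and DNAJC3, which bind HSPA5, averaged 104 ± 3.65 and 57.6 ± 5.61 FPKM with hFGF19, against 107 ± 7.42 and 58.8 ± 4.93 FPKM in controls. SDF2L1, a partner of ER chaperone complexes, averaged 98.1 ± 12.1 FPKM with hFGF19 and 92.9 ± 10.3 FPKM in controls. It was higher with hFGF19 in 4 of 4 same-numbered pairs, as was MANF, a secreted ER stress protein, at 105 ± 6.26 FPKM against 103 ± 6.25 FPKM in controls. CRELD2, another ER stress-induced protein, averaged 21.2 ± 0.768 FPKM with hFGF19 and 21.0 ± 2.65 FPKM in controls. These means were close in each case, and the groups overlapped.

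PDIA4, a disulfide isomerase, had the widest spread of the chaperones, at 153, 100, 83.1 and 118 FPKM in hFGF19 samples 1 to 4 and at 146, 91.7, 101 and 156 FPKM in control samples 1 to 4. Samples 1 and 4 were the high ones in both groups, and the highest library was 1.88-fold above the lowest. PDIA6, a second isomerase, differed little between libraries, at 79.5 ± 2.05 FPKM with hFGF19 and 80.1 ± 2.90 FPKM in controls. The lectin chaperones CALR and CANX averaged 411 ± 34.4 and 2388 ± 89.6 FPKM with hFGF19, against 419 ± 44.3 and 2417 ± 142 FPKM in controls.

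The 3 genes of ER-associated degradation each had a lower mean with hFGF19, and none passed the test. HERPUD1, a ubiquitin-like membrane protein of the degradation complex, stood at 112, 116, 108 and 121 FPKM in hFGF19 samples 1 to 4 and at 123, 126, 117 and 121 FPKM in control samples 1 to 4. It was lower with hFGF19 in 3 of 4 same-numbered pairs, with hFGF19 sample 4 the exception, and the groups overlapped. The difference was -0.091 ± 0.052 log2 (SE, limma unadjusted p = 0.107, adjusted p = 0.9998). EDEM1, which routes misfolded glycoproteins to degradation, averaged 67.8 ± 4.44 FPKM with hFGF19 and 71.7 ± 4.17 FPKM in controls and was lower with hFGF19 in each of the 4 pairs. SEL1L, the adaptor of the HRD1 ubiquitin ligase, averaged 127 ± 14.2 FPKM with hFGF19 and 134 ± 10.5 FPKM in controls.

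Of the ATF4 targets, 7 of 12 tested had a higher mean with hFGF19 and 5 a lower one, with a median difference of 0.025 log2, and 0 of 12 passed the test. The smallest unadjusted p of all the stress genes was that of PPP1R15A, the phosphatase subunit that reverses the block on translation. It stood at 194, 195, 181 and 202 FPKM in hFGF19 samples 1 to 4 and at 182, 175, 180 and 182 FPKM in control samples 1 to 4. The hFGF19 sample was the higher in 4 of 4 same-numbered pairs, yet hFGF19 sample 3 lay below the highest controls. The difference was 0.10 ± 0.049 log2 (SE), with a limma unadjusted p of 0.066 and an adjusted p of 0.9998.

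CHAC1, a sensitive marker of the ATF4 branch, stood at 6.26, 7.12, 6.76 and 6.94 FPKM in hFGF19 samples 1 to 4 and at 6.12, 5.90, 6.41 and 6.49 FPKM in control samples 1 to 4. It was higher with hFGF19 in 4 of 4 same-numbered pairs, and hFGF19 sample 1 fell within the controls. These values rest on 150 to 180 reads per library, and the limma difference was 0.10 ± 0.071 log2 (SE, adjusted p = 0.9998). TRIB3, a pseudokinase that restrains AKT and ATF4 signalling, averaged 239 ± 8.13 FPKM with hFGF19 and 235 ± 7.88 FPKM in controls. NUPR1 averaged 3.08 ± 0.202 FPKM with hFGF19 and 3.21 ± 0.220 FPKM in controls.

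The genes of amino acid synthesis differed by little between the groups. PSAT1 averaged 73.9 ± 1.97 FPKM with hFGF19 and 75.6 ± 2.72 FPKM in controls. MTHFD2, a mitochondrial enzyme of folate metabolism, averaged 52.7 ± 1.69 FPKM with hFGF19 and 53.0 ± 2.92 FPKM in controls. ASNS stood at 1.24, 1.64, 2.17 and 1.55 FPKM in hFGF19 samples 1 to 4 and at 1.41, 2.40, 1.67 and 1.39 FPKM in control samples 1 to 4, on 33 to 60 reads per library. Its spread within each group was wide beside the difference of -0.032 ± 0.15 log2 (SE).

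Among the transporters, SLC7A11, the cystine carrier, stood at 26.0, 41.8, 46.8 and 34.8 FPKM in hFGF19 samples 1 to 4 and at 28.7, 44.0, 40.3 and 26.6 FPKM in control samples 1 to 4. Samples 2 and 3 were the high ones in both groups, the reverse of PDIA4. SLC3A2, its partner chain, averaged 977 ± 27.1 FPKM with hFGF19 and 946 ± 21.6 FPKM in controls and was higher with hFGF19 in 4 of 4 same-numbered pairs. SLC7A5 averaged 458 ± 59.2 FPKM with hFGF19 and 449 ± 51.4 FPKM in controls. VLDLR, a lipoprotein receptor gene that ATF4 induces, averaged 27.9 ± 1.47 FPKM with hFGF19 and 29.5 ± 0.919 FPKM in controls.

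Set side by side, the ER chaperones and the ATF4 targets lay at a distance that differed between the groups by less than the spread of the libraries. The mean log2(FPKM + 1) of the 12 chaperones was 7.48, 7.40, 7.39 and 7.43 in hFGF19 samples 1 to 4 and 7.46, 7.39, 7.42 and 7.53 in control samples 1 to 4. For the 12 ATF4 targets tested it was 5.55, 5.61, 5.64 and 5.63 in hFGF19 samples 1 to 4 and 5.54, 5.63, 5.60 and 5.59 in control samples 1 to 4. The chaperone level minus the target level was 1.82 ± 0.081 with hFGF19 and 1.86 ± 0.086 in controls (SD, n = 4 each). The ranges overlapped, from 1.75 to 1.93 with hFGF19 and from 1.75 to 1.94 in controls. Summed over genes, the chaperones held 4697 ± 218 FPKM with hFGF19 and 4787 ± 319 FPKM in controls, and the ATF4 targets 2094 ± 67.9 FPKM with hFGF19 and 2038 ± 50.4 FPKM in controls. The median difference was -0.027 log2 for the chaperones, 0.025 log2 for the targets and -0.013 log2 for all genes tested. The counts of higher and lower means were not stable, since without control sample 4 the mean was higher with hFGF19 for 7 of 12 chaperones, and without hFGF19 sample 3 for 6 of 12 chaperones and 5 of 12 ATF4 targets.

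**Figure D4:**
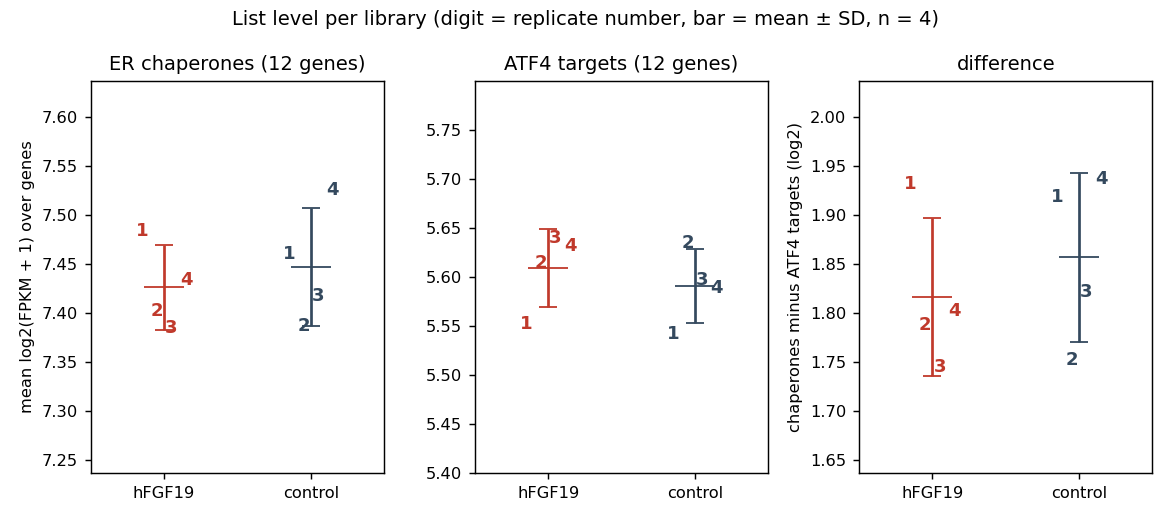
Mean log2(FPKM + 1) of the 12 ER chaperones, of the 12 ATF4 targets tested, and the difference of the pair, in each library. Digits are replicate numbers and bars the mean ± SD of 4 libraries, hFGF19 left and control right, and the ranges overlap in each panel (difference 1.75 to 1.93 with hFGF19 and 1.75 to 1.94 in controls).

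The genes with an element matched above were also read as groups. Of the 10 genes with ERSE or ERSE-II (the 8 chaperones, HERPUD1 and XBP1), 0 were called and 3 had a higher mean with hFGF19, against 0.106% and 43.7% of all genes, with differences from -0.091 to 0.077 log2. Of the 4 genes with CARE, 0 were called and 2 had a higher mean, with differences from -0.091 (HERPUD1) to 0.10 (CHAC1). Groups of this size say little beside those shares.

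Many of the stress genes divided the libraries by replicate number. The first principal component of all genes tested held 35.4% of the variance and placed samples 1 and 4 of both groups on one side and samples 2 and 3 of both groups on the other. What the numbers stand for is not given, and the division was read from these same values, so the counts are a description. Of the 32 genes, 13 had libraries that did not overlap between these sets, against 22.7% of all genes. In 7 genes (ERN1, HSPA5, HYOU1, DNAJB9, PDIA4, CALR and SLC7A5) each of the 4 libraries numbered 1 or 4 was above each of those numbered 2 or 3, against 11.3% of all genes. In 6 genes (ATF6, DNAJC3, SDF2L1, MANF, ASNS and SLC7A11) the order was the reverse, against 11.4% of all genes. Of 89 further genes of these pathways, described below, 21 divided the first way and 10 the reverse. The division is thus not particular to the 32 genes. Their median level was 99.8 FPKM, against 13.6 FPKM for all genes, so the shares of all genes are not those of genes at a like level.

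PDIA4 averaged 143 FPKM in samples 1 and 4 of both groups and 94.0 FPKM in samples 2 and 3, whereas SLC7A11 averaged 29.02 FPKM in samples 1 and 4 and 43.2 FPKM in samples 2 and 3. The chaperone list held genes of both kinds, 5 high in samples 1 and 4 and 3 high in samples 2 and 3. GC content was taken from the longest transcript of each gene. Its median was 53.0% for the 7 genes high in samples 1 and 4 and 44.2% for the 6 high in samples 2 and 3. Over all genes of each kind it was 51.8% and 41.0%. The library totals overlapped, from 17778831 to 20752753 reads in samples 1 and 4 and from 17121190 to 18938686 reads in samples 2 and 3. The part of GC content in this division was not tested.

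**Figure D5:**
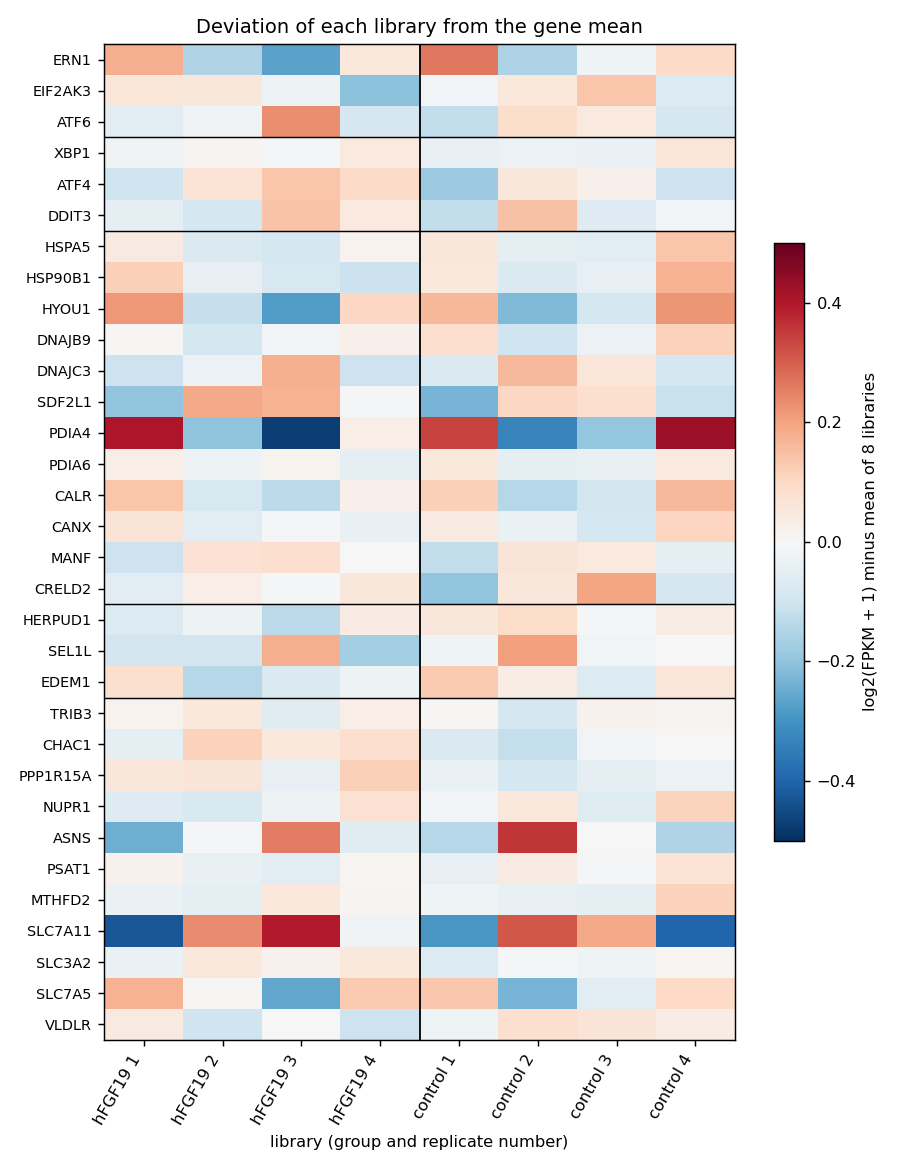
Deviation of log2(FPKM + 1) from the gene's mean over 8 libraries, for the 32 genes tested (rows, by role) in hFGF19 samples 1 to 4 and control samples 1 to 4 (columns), with red above and blue below the mean. HYOU1 is red in samples 1 and 4 of both groups, as is PDIA4 except in hFGF19 sample 4, where it is near its mean. SLC7A11 is blue in sample 1 of both groups and in control sample 4.

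Other genes of the same pathways were read from 4 further lists of 96 genes, of which 89 were tested. With limma 0 of 89 were called, against 0.106% of all genes, and 5 had an unadjusted p below 0.05, against 4.23%. Of the genes above, 3 of 12 chaperones and 7 of 12 ATF4 targets had a higher mean with hFGF19, and such counts were not stable. Against 43.7% of all genes, the mean was higher with hFGF19 for 18 of 25 further ER folding genes and 6 of 16 further degradation genes. It was higher for 10 of 30 further ATF4 targets and 8 of 18 regulators. By deposited FPKM, the highest gene of each was P4HB, the main protein disulfide isomerase (902 ± 37.0 FPKM with hFGF19 and 844 ± 47.6 FPKM in controls), STT3B, a subunit of the glycosylation complex (264 ± 12.3 and 276 ± 8.58 FPKM), GDF15, and GCN1, the activator of the amino acid sensing kinase (219 ± 33.9 and 220.3 ± 23.7 FPKM). Over all exonic bases SEC61A1 (169.8 FPKM) and DAD1 (161.6 FPKM) would stand above P4HB (152.6 FPKM), and EIF2AK1 (40.9 FPKM) above GCN1 (32.7 FPKM).

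GDF15, a secreted stress cytokine that ATF4 induces, stood at 1231, 1156, 1052 and 1244 FPKM in hFGF19 samples 1 to 4 and at 1003, 915, 987 and 993 FPKM in control samples 1 to 4. The groups did not overlap, and the difference was 0.26 ± 0.065 log2 (SE), but it missed the threshold (limma unadjusted p = 0.0022, adjusted p = 0.461). The other 4 with an unadjusted p below 0.05, named here after their values were seen, were FKBP2 (0.14 log2), CEBPG (-0.14 log2), SLC6A9 (-0.23 log2) and JDP2 (-0.22 log2). Of these, 1 ER folding gene was higher with hFGF19 and 3 ATF4 targets were lower, each with an adjusted p of 0.9998.

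The cell line label was read against its markers. Of 9 epithelial and intestinal markers, 5 were above 1 FPKM in the mean, with KRT8 at 1451 and EPCAM at 27.2 FPKM, while CDX1 was at 0 in all 8 libraries and CDX2, VIL1 and CDH17 were below 1 FPKM. Since the labels' RNA protocol also speaks of adipose, 8 adipocyte markers were read, of which CFD alone was above 1 FPKM, with FABP4 at 0 and ADIPOQ and LEP at or near 0. Of the markers of other cell types, 2 of 3 endothelial genes (PECAM1 at 4.68 and CDH5 at 3.79 FPKM), 2 of 5 hepatocyte genes (SERPINA1 at 25.6 and ALB at 3.97 FPKM), 1 of 5 fibroblast genes (COL1A1 at 22.7 FPKM) and 1 of 5 immune genes (CD14 at 1.19 FPKM) were above 1 FPKM in the mean. Library totals lay between 17121190 and 20752753 reads.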

How the data were processed

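The authors deposited FPKM values, 1 per gene and sample. The submitters' processing notes list HISAT2 2.0, StringTie 1.3.0 and hg19 with no role for each. How reads were counted, the strand setting and any filter were not given in the sources used here. With gene lengths equal to the mean transcript length in GENCODE 29, 100% of the FPKM values above 0 of 58676 genes were whole reads within 0.02 reads (37.1% with the length of all exons), which gave library totals and reads per gene. The other 965 rows have no symbol. The GENCODE 29 lengths used are those on GRCh38, whereas the notes name hg19, and which build was used is not settled here.

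Differences were fitted with limma 3.58.1 under R 4.3.3, on log2(FPKM + 1) values of the 14100 genes whose mean reached 1 FPKM, using its moderated two-sided test with a trended variance. An adjusted p below 0.05 was called. The fold changes understate those of low genes. The 33 genes and all lists were chosen with earlier results of these data known. All 33 genes are named. Of the further lists, called genes and the gene with the highest FPKM of each were to be named. The lists get no test of their own.

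Across genes, same-numbered hFGF19 and control samples deviated together from their group means, with correlations of 0.302, 0.172, 0.174 and 0.107 for numbers 1 to 4. Each was over 0.1, so a fit with the number as a block was run, but the numbers are not shown to mark true pairs: across different numbers the correlations ran from -0.448 to 0.436, and each hFGF19 sample correlated at least as well with a control of another number (1 with 4 at 0.412, 2 with 3 at 0.173, 3 with 2 at 0.436, 4 with 1 at 0.194), along the division of 1 and 4 against 2 and 3. Alternatives were other pseudocounts, filters and scalings, voom on the recovered reads, and samples left out. Levels over all exonic bases were added after seeing the data. Floors cover counting error only, since duplicate reads may remain.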

Additional observations from a re-analysis of the deposited data

Results flagged for a closer look

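In 5 of the 66 groups of 4 libraries examined (33 genes in hFGF19 samples and in controls), 1 library stood farther from the other 3 than Dixon's 95% criterion for 4 values allows, and chance gives about 3.3. All 5 were control libraries. XBP1 was at 149.5 FPKM in control sample 4 and between 139.8 and 140.6 FPKM in the other controls. MTHFD2 was at 57.3 FPKM in the same library and between 51.1 and 52.0 FPKM in the others. SEL1L was at 149.8 FPKM in control sample 2 and between 128 and 129.8 FPKM in the others. TRIB3 was at 223.6 FPKM in control sample 2 and between 238 and 240.5 FPKM in the others. PHGDH was at 0.0842 FPKM, or 2 reads, in control sample 1 and at 0 in the other controls. With the other 3 values at 0, any read would have been flagged, so the PHGDH flag carries no weight.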

How the results depend on the processing

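The number of stress genes called was 0 in the fit reported and under each of 18 alternatives, as was that of the further lists. The replicate block changed no call, with 0 called and a smallest adjusted p of 0.732, and over the 18 alternatives that smallest p ran from 0.732 to 1. Voom on the recovered reads called 14 of 13932 genes and 0 of the stress genes. Leaving out 1 library at a time gave a median log2 difference between -0.0248 and 0.00443 for the 32 genes, between -0.0503 and 0.00443 for the chaperones and between -0.0165 and 0.0332 for the ATF4 targets, and chaperones minus targets ran from -0.0755 to 0.0103. With replicate numbers 2 and 3 only, the median of the 32 genes was 0.00423. The causes were not tested. Of 32 genes, 15 kept 1 sign in each alternative that tested them and 17 did not. Under quantile normalization 12 were higher with hFGF19 and 20 lower. Without hFGF19 sample 1, ATF4 differed by 0.15 log2 with an unadjusted limma p of 0.0473 (adjusted 0.757). Without hFGF19 sample 3, PPP1R15A differed by 0.13 log2 with an unadjusted limma p of 0.0175 (adjusted 0.923) and SEL1L by -0.16 log2 with one of 0.0343 (adjusted 0.996). Counting error weighs most on ASNS, NUPR1 and CHAC1, whose highest libraries held 60, 155 and 180 reads.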
